A study of Mus musculus with 1666 samples.

Results

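The 9 genes described here belong to the Hedgehog pathway: the ligand Shh, its receptor Ptch1, the coreceptors Gas1, Boc and Cdon, the ligand-binding inhibitor Hhip, and the transcription factors Gli1, Gli2 and Gli3. They were chosen by symbol from the 49662 symbols of a table of single-cell expression, and all 9 have a row. Their levels were followed in 2 classes of cells from embryonic mouse whisker follicles. Epithelial cells had at least 10 TPM of Krt5 and Trp63, both markers of basal epidermis, and under 50 TPM of the collagen gene Col3a1. Fibroblast-like cells had at least 50 TPM of Col3a1, at least 10 TPM of Pdgfra and under 10 TPM of Trp63. TPM is transcript abundance scaled for gene length and for the total of a cell, so that levels of different genes can be set side by side. Of 1614 cells, 1035 were epithelial, 417 fibroblast-like and 162 fell in neither class.

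Shh is a secreted protein made by the epithelium of the growing hair bud, and it signals to the follicle epithelium and to the dermal cells beneath it. Without ligand, Ptch1 holds the membrane protein Smo inactive; with ligand bound, Smo is released, and Gli2 and Gli3 change their activity. Cells that receive the signal raise Gli1, Ptch1 and, in many tissues, Hhip, so these genes are widely used as readouts of Hedgehog signalling. Gas1, Boc and Cdon bind the ligand at the cell surface and help Ptch1 receive it, and in the mouse neural tube Hedgehog signalling turns these genes down.

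All cells came from a mouse line with a photo-convertible nuclear protein, Kikume Green-Red, by which whole whisker follicles were marked with light at 6 stages between E12.0 and E17.0. The cells sorted at these stages were red, carried ITGA6 (an integrin subunit on basal keratinocytes) and lacked CD31, an endothelial surface protein; at E11.5 sorting rested on ITGA6 and CD31 alone. No stage had a treated or mutant group. The promoter of the reporter, the strain and the number of embryos are not given in the sources used here, so each stage counts as 1 sample and its library plates are not replicates. Libraries were made by RamDA-seq, which reads full-length total RNA.

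In stage order (E11.5, E12.0, E13.0, then E13.5, then E14.0, E15.0, finally E17.0), the epithelial cells numbered 54, 267, 53, 159, 144, 178 and 180. Fibroblast-like cells numbered 14, 0, 210, 2, 19, 126 and 46 in that order, so comparisons between the classes use the 5 stages other than E12.0 and E13.5. E11.5 had 1 plate, so its values have no range over plates, and its cells were not sorted for the red mark. Every statement below that E11.5 lies apart from other stages carries both limits. Median genes at 1 TPM or more per cell ranged from 16601 to 19468.5 over stages. Basal markers that the rule did not use were high in epithelial cells, with a median of 279 TPM for Krt14 and 46.4 TPM for Col17a1, and both had a median of 0 in fibroblast-like cells. Fibroblast-like cells had medians of 959 TPM for Col1a1 and 141 TPM for Twist2, and 321 of 417 had at least 3 of 7 dermal papilla markers at 10 TPM. This count does not identify a cell as dermal papilla. Trps1 was at 10 TPM in 99.5% of fibroblast-like cells, but also in 94.7% of epithelial cells. Crabp1 and Alpl were at that level in 77.9 and 55.9% of fibroblast-like cells. Sox2, Corin and Sox18 were so in 35.3, 11.3 and 10.6%, and Bmp4 lay between Alpl and Sox2. Although the sort was for ITGA6, 48.4% of fibroblast-like cells had Itga6 at 10 TPM or more. Near the limits of the rule, 9 epithelial cells had 25 to under 50 TPM of Col3a1, and 2 cells with the basal markers had 50 to under 100 TPM. E15.0 plate 1 stood apart within its stage, with 10 epithelial and 73 fibroblast-like cells, or 81.1% fibroblast-like. The plates of E13.0 had a similar make-up, with 73.3 to 82.2% fibroblast-like cells, against at most 23.3% on any remaining plate. Titles of E15.0 plate 1 carry the same plate identifier as E13.0 plate 1, and 4 of the 14 plate identifiers appear under 2 stages.

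In GRCm38, the build of the deposited table, the GENCODE M21 annotation places Shh at chr5:28456815-28467256 on the minus strand, Ptch1 at chr13:63508328-63573598 on the minus strand and Hhip at chr8:79965851-80058006 on the minus strand. Gas1 lies at chr13:60174405-60177365 (minus), Boc at chr16:44485049-44558897 (minus) and Cdon at chr9:35421128-35507652 (plus). Gli1 is at chr10:127329882-127341974 (minus), Gli2 at chr1:118834132-119053619 (minus) and Gli3 at chr13:15463235-15730026 (plus). RefSeq promoter windows, 250 bases before to 50 after a gene's start in GRCm38.p6, were at hand for 6 of the 9 genes: Ptch1, Gli2, Gli3, Hhip, Gas1 and Cdon. Those of Ptch1, the receptor that is also a target, and of Gas1, the coreceptor that differed most with Shh, are shown because the results turn on these genes; capitals mark the 50 bases after the start.
Ptch1, chr13:63565686-63565985, minus strand: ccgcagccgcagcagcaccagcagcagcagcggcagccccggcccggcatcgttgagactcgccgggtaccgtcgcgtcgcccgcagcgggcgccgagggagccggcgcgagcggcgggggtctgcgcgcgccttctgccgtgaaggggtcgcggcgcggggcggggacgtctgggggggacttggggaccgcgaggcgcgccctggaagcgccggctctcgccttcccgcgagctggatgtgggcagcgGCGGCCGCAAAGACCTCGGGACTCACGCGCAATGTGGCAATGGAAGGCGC
Gas1, chr13:60177486-60177785, minus strand: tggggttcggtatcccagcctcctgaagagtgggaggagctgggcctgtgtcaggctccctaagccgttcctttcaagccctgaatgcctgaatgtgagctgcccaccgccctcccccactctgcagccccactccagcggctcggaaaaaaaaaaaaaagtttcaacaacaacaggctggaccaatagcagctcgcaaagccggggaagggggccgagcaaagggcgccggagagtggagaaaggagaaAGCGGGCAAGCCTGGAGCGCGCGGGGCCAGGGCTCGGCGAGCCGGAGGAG
The Ptch1 window lies inside the GENCODE span of the gene, and the Gas1 window lies before its GENCODE start. The Ptch1 window holds 47 CpG dinucleotides and is 76.3% G or C, and the Gas1 window holds 17 and is 62.3% G or C; the median over all 32851 windows is 7 CpG and 52.7%. The motif TGGGTGGTC, bound by Gli proteins, was searched on both strands (its reverse complement is GACCACCCA). It was found in 0 of the 6 windows and in 83 of all 32851, or 0.253%; the absence of these letters from a window says nothing about binding elsewhere.

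Shh, the ligand, was an epithelial transcript present in a minority of cells. The epithelial mean was 2.23 TPM at E11.5, 12.8 TPM at E12.0, 14.03 TPM at E13.0, 3.95 TPM at E13.5, 4.17 TPM at E14.0, 6.87 TPM at E15.0 and 15.6 TPM at E17.0. Each is the mean of plate means, and the plates spread widely, from 4.44 to 18.95 TPM at E13.0 and from 0.0978 TPM on plate 1, which has 10 epithelial cells, to 11.6 TPM at E15.0. No 2 neighbours in the order of stage means had plate ranges apart, although E17.0, with plates at 11.1 to 19.3 TPM, lay wholly above E11.5, E13.5 and E14.0. The mean hides a mixture: 826 of 1035 epithelial cells had under 1 TPM, 551 of them at 0, while 67 had 1 to under 10 TPM, and 142 (13.7%, exact Clopper-Pearson 95% interval 11.7 to 15.97%) had 10 TPM or more. Intervals here and below cover the counting of cells alone.

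The share of epithelial cells with Shh at 10 TPM or more was 5.56% at E11.5, 23.97% at E12.0 (18.98 to 29.6%), 22.6% at E13.0 (12.3 to 36.2%), 3.14% at E13.5 (1.03 to 7.19%), 7.64% at E14.0, 8.43% at E15.0 (4.79 to 13.52%) and 17.8% at E17.0 (12.5 to 24.2%). These intervals do not compare stages, since each stage is 1 sample. By plate the share was 1.25 and 5.06% at E13.5 and 13.2 to 31.5% at E12.0. It was 14.3 to 26.1% at E13.0 and 10.9 to 22.4% at E17.0. Among the positive cells the mean was 51.05 TPM at E12.0, 118 TPM at E13.5 in 5 cells and 85.1 TPM at E17.0. In fibroblast-like cells Shh averaged 0.113 to 0.272 TPM by stage, and 0 of 417 reached 10 TPM, which allows a share of up to 0.719%. Dhh and Ihh, the other 2 Hedgehog ligands of the mouse, were at 10 TPM in 0 of 1035 epithelial cells, which allows up to 0.290%, and in 0 of 417 fibroblast-like cells.

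Ptch1, the receptor, had the highest mean over stages of all members in both classes, but not at every stage: it was below Cdon, Gli2, Gli3 and Gas1 in the epithelium at E11.5, below Gas1 there at E17.0, and below Gli3 in fibroblast-like cells at E11.5. In epithelial cells its mean was 25.4 TPM at E11.5, 131 TPM at E12.0, 149 TPM at E13.0, 85.3 TPM at E13.5, 130 TPM at E14.0, 96.4 TPM at E15.0 and 60.1 TPM at E17.0. The plates of E17.0, at 50.9 to 73.5 TPM, lay below those of E12.0, E13.0, E13.5 and E14.0, and E11.5 had the lowest value, while no 2 neighbours among the 5 highest stages had plate ranges apart. In fibroblast-like cells Ptch1 averaged 47.6 TPM at E11.5, 241 TPM at E13.0, 253 TPM at E14.0, 299 TPM at E15.0 and 294 TPM at E17.0. The 4 later stages overlapped, and plates of E15.0 ran from 61.5 TPM on plate 1 (73 cells) to 492 TPM. The medians over cells took another course, with 35.95 TPM at E11.5, 213 TPM at E13.0, 123 TPM at E14.0, 57.5 TPM at E15.0 and 71.5 TPM at E17.0, and the highest cell, at E17.0, had 2220 TPM. The median was thus highest at E13.0 and well below the mean at E15.0 and E17.0.

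Gli1, the transcription factor that the signal itself induces, had an epithelial mean of 13.2 TPM at E11.5, 56.7 TPM at E12.0, 60.2 TPM at E13.0, 33.5 TPM at E13.5, 44.4 TPM at E14.0, 41.6 TPM at E15.0 and 42.6 TPM at E17.0. In the order of means E13.0 and E12.0 overlapped, E12.0 and E14.0 were apart, and no 2 neighbours among E14.0, E17.0, E15.0 and E13.5 were; the plates of E17.0, at 32.6 to 57.4 TPM, also overlapped those of E12.0 and E13.0. The fibroblast-like means were 38.9 TPM at E11.5, 95.3 TPM at E13.0, 67.6 TPM at E14.0, 56.2 TPM at E15.0 and 66.98 TPM at E17.0, with E13.0, at 85.4 to 107 TPM by plate, above the plates of E14.0. Gli1 was thus lowest at E11.5 in both classes, as was Ptch1, but E11.5 is 1 plate, with 14 fibroblast-like cells, sorted without the red mark. At E11.5, 35.2% of epithelial cells had Gli1 at 10 TPM or more, against 97.8% at E12.0.

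Hhip, which binds and sequesters the ligand, was near 0 in epithelial cells. The epithelial means were 1.08 TPM at E12.0 and 0.162 to 0.430 TPM at the other stages, and 2 of 1035 cells reached 10 TPM. In fibroblast-like cells the means were 1.24 TPM at E11.5, 12.6 TPM at E13.0, 14.6 TPM at E14.0, 15.7 TPM at E15.0 and 18.0 TPM at E17.0. The 4 later stages overlapped, and E15.0 plate 1 had 1.502 TPM, against 6.29 to 35.1 TPM on the other plates of that stage. The share of fibroblast-like cells with Hhip at 10 TPM or more took another course, with 1 of 14 at E11.5, 79 of 210 at E13.0 (37.6%, 31.05 to 44.5%), 7 of 19 at E14.0, 16 of 126 at E15.0 (12.7%, 7.44 to 19.8%) and 12 of 46 at E17.0 (26.1%, 14.3 to 41.1%). Medians over these cells were 5.67 TPM at E13.0, 0.174 TPM at E15.0 and 0.801 TPM at E17.0 (highest cell 198 TPM). At E15.0 plate 1 held 73 of the 126 cells and 3 of the 16 positive ones. Shares of positive cells on plates 2, 3 and 4 of that stage were 10, 27.8 and 40%.

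Gli2 and Gli3, the factors that carry the signal to the nucleus, were present in most cells of both classes. Gli2 had epithelial means of 38.5 TPM at E11.5, 34.6 TPM at E12.0, 32.7 TPM at E13.0, 31.5 TPM at E13.5, 48.03 TPM at E14.0, 30.5 TPM at E15.0 and 37.5 TPM at E17.0. E14.0, with plates at 46.6 to 49.5 TPM, was the one stage apart from its neighbour. Fibroblast-like means of Gli2 were 45.9 TPM at E11.5, 64.6 TPM at E13.0, 41.4 TPM at E14.0, 41.95 TPM at E15.0 and 35.6 TPM at E17.0, and the plates of E13.0 lay above those of all other stages. Gli3, which acts largely as a repressor where ligand is absent, was highest at E11.5 in both classes. Its epithelial mean was 37.7 TPM at E11.5, 24.9 TPM at E12.0, 17.7 TPM at E13.0, 18.4 TPM at E13.5, 20.3 TPM at E14.0, 16.2 TPM at E15.0 and 16.4 TPM at E17.0. The plate ranges of E11.5, E12.0 and E14.0 were each apart from the next stage in order, and the 4 lowest stages overlapped. Fibroblast-like means of Gli3 were 59.9 TPM at E11.5, 29.3 TPM at E13.0, 38.1 TPM at E14.0, 27.8 TPM at E15.0 and 22.7 TPM at E17.0.

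The 3 coreceptors differed in their course. Gas1, a membrane-anchored protein first known from growth-arrested cells, had epithelial means of 26.2 TPM at E11.5, 49.7 TPM at E12.0, 46.6 TPM at E13.0, 64.1 TPM at E13.5, 95.5 TPM at E14.0, 70.9 TPM at E15.0 and 66.9 TPM at E17.0. E14.0 stood above all other stages and E11.5 below them. Fibroblast-like means of Gas1 were 40.9 TPM at E11.5, 31.6 TPM at E13.0, 68.5 TPM at E14.0, 50.7 TPM at E15.0 and 40.3 TPM at E17.0, and no 2 neighbours in their order were apart. Boc, an immunoglobulin-domain coreceptor, was lowest in the epithelium at E13.0, with 7.50 TPM, and highest at E15.0, with 29.9 TPM; at the other stages it had 23.4 TPM (E11.5), 14.9 TPM (E12.0), 18.3 TPM (E13.5), 20.3 TPM (E14.0) and 27.3 TPM (E17.0). The epithelial order of Boc was the most resolved of the 9 genes, with 4 neighbouring steps apart. Fibroblast-like means of Boc were 14.96 TPM at E11.5, 16.1 TPM at E13.0, 33.6 TPM at E14.0, 27.1 TPM at E15.0 and 16.9 TPM at E17.0. Cdon, the close relative of Boc, was highest at E11.5 in the epithelium, with 44.003 TPM, followed by 25.6 TPM at E12.0, 13.2 TPM at E13.0, 17.5 TPM at E13.5, 20.1 TPM at E14.0, 13.8 TPM at E15.0 and 13.6 TPM at E17.0. Fibroblast-like means of Cdon were 26.1 TPM at E11.5, 17.3 TPM at E13.0, 12.4 TPM at E14.0, 23.4 TPM at E15.0 and 27.1 TPM at E17.0. Counted per cell at 10 TPM, 119 of 1035 epithelial cells had none of the 3 coreceptors and 405 had all 3, with shares of none from 1.85% at E11.5 to 22.6% at E13.0; in fibroblast-like cells 25 of 417 had none and 167 had all 3.

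**Figure D1:**
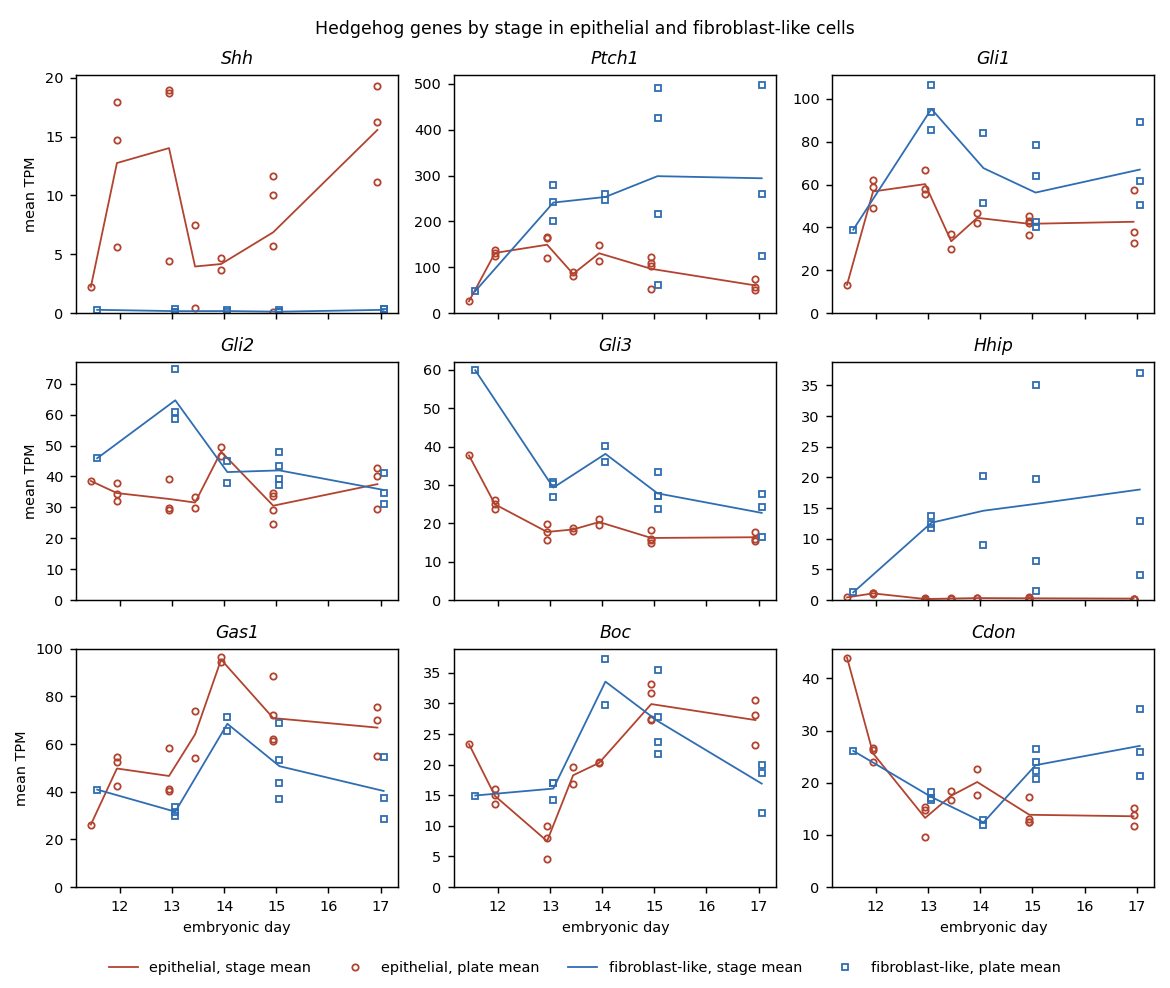
Mean TPM of the 9 Hedgehog genes against embryonic day, with 1 panel a gene; red circles and lines are epithelial cells, blue squares and lines fibroblast-like cells, symbols are means of single plates with at least 5 cells, set slightly apart by class, and lines join stage means. Shh lies near 0 and Hhip above the epithelial line in fibroblast-like cells, and Ptch1 and Gli1 are lowest at E11.5, a stage of 1 plate, in both classes.

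None of the members passed the test for a straight trend over embryonic day. Among epithelial cells limma, fitted to log2(stage mean TPM + 1) at the 7 stages with a floor of 1 TPM on a gene's mean, called 443 of 23671 genes (1.87%) at an adjusted p of 0.05, 1.23% rising and 0.646% falling; 0 of the 8 members tested were called, and Hhip was below the filter. At an unadjusted p of 0.05 limma called 4463 genes, among them Gli3, with -0.17 log2 units per day (SE 0.059, 95% interval -0.31 to -0.034, adjusted p 0.181), and Cdon, with -0.24 per day (SE 0.085, interval -0.43 to -0.040, adjusted p 0.194). In fibroblast-like cells the fit over 5 stages called 83 of 24049 genes (0.345%; 0.262% rising and 0.0832% falling) and 0 of 8 members, with Shh below the filter; 4587 genes had an unadjusted p under 0.05. Ptch1 had 0.41 per day (SE 0.15, interval 0.055 to 0.77, adjusted p 0.216), Hhip 0.49 (SE 0.16, interval 0.087 to 0.89, adjusted p 0.2004) and Gli3 -0.22 (SE 0.066, interval -0.38 to -0.056, adjusted p 0.174). The median slope of the members tested was 0.084 in epithelial and 0.050 in fibroblast-like cells, against -0.0062 and 0.039 over all genes tested. These fits rest on few stages: the epithelial fit made 408 calls without E17.0 and 39 to 281 without any other stage, and the fibroblast-like fit 0 to 2 without any stage. None of these 5 slopes passed in any of those fits. With a stage or plate left out, the fibroblast-like slopes ran from 0.076 to 0.73 for Ptch1 and from 0.12 to 0.82 for Hhip. Gli3 there ran from -0.27 to -0.12. The epithelial slopes ran from -0.28 to -0.096 for Gli3 and from -0.37 to -0.13 for Cdon. With means of log2 values over cells, which weigh single high cells less, the fibroblast-like slopes were 0.14 for Ptch1 (adjusted p 0.671) and 0.15 for Hhip (adjusted p 0.597).

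The pathway's other genes mostly did not pass either. Of 24 listed components, 20 were tested in epithelial cells and 1 was called: Gpc3, a cell-surface glypican that competes for Hedgehog ligand, fell by 0.47 log2 units per day (SE 0.076, adjusted p 0.0313). Of 10 listed target genes, 8 were tested and 1 was called, Foxe1, a forkhead factor of the follicle, which rose by 0.67 per day (SE 0.097, adjusted p 0.0224). In fibroblast-like cells 1 of 21 components was called, Scube3, a secreted relative of the Hedgehog-releasing protein Scube2, which rose by 0.97 per day (SE 0.10, adjusted p 0.0446), and 0 of 7 targets. Without E15.0 plate 1 that fit made 47 calls.

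Between the classes, 5 of the 9 members differed: Shh was higher in epithelial cells, and Ptch1, Gli1, Gli3 and Hhip were lower there than in fibroblast-like cells. The comparison asks which compartment carries ligand and which carries receptors and target transcripts; it sets both classes of the same plates against each other within 5 stages (609 epithelial and 415 fibroblast-like cells on 13 plates), with stage as a block. Limma called 5152 of 24166 genes (21.3%), 1933 higher (8%) and 3219 lower (13.3%) in epithelial cells, so a call is common in this contrast. The members' median difference was -0.27 log2 units, against -0.10 over all genes tested. Shh, at 0.195 TPM in fibroblast-like cells, and Hhip, at 0.284 TPM in epithelial cells, reached the filter of 1 TPM only through the other class. A gene near 0 in one class could enter this fit only if it was high in the other, so these calls are given as description. The number of calls lay between 2267 and 7087 when a stage was left out, with 7087 without E11.5, 3149 without E13.0, 2391 without E14.0, 2267 without E15.0 and 2980 without E17.0.

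Shh averaged 8.57 ± 5.94 TPM in epithelial and 0.195 ± 0.071 TPM in fibroblast-like cells (SD over 5 stages), a log2 difference of 2.74 (SE 0.37, adjusted p 0.0048). Every epithelial stage lay above every fibroblast-like stage. Hhip showed the reverse, with 0.284 ± 0.0996 TPM in epithelial and 12.4 ± 6.55 TPM in fibroblast-like cells, a difference of -3.08 (SE 0.49, adjusted p 0.0083), and again the stages of the classes did not overlap.

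Ptch1 averaged 92.2 ± 50.5 TPM in epithelial and 227 ± 103 TPM in fibroblast-like cells, a difference of -1.28 (SE 0.24, adjusted p 0.0139). Gli1 averaged 40.4 ± 16.999 TPM in epithelial and 65.01 ± 20.5 TPM in fibroblast-like cells, a difference of -0.76 (SE 0.16, adjusted p 0.0219). For both the ranges of stages overlapped, but within each of the 5 stages the epithelial value was the lower one. Gli3 averaged 21.7 ± 9.12 TPM in epithelial and 35.6 ± 14.7 TPM in fibroblast-like cells, a difference of -0.68 (SE 0.094, adjusted p 0.0051), and was likewise lower in 5 of 5 stages. For Ptch1 the median over cells at E15.0 was 64.99 TPM in epithelial and 57.5 TPM in fibroblast-like cells, and with means of log2 values its difference between the classes was -0.95 (adjusted p 0.0023).

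The coreceptors and Gli2 did not pass. Gas1 averaged 61.2 TPM in epithelial and 46.4 TPM in fibroblast-like cells (0.32, 95% interval -0.16 to 0.80, adjusted p 0.299), and Gli2 37.5 and 45.9 TPM in the same order (-0.27, interval -0.70 to 0.15, adjusted p 0.311). Boc had 21.7 TPM in both classes (-0.060, interval -0.73 to 0.61, adjusted p 0.900), and Cdon had 20.96 TPM in epithelial and 21.2 TPM in fibroblast-like cells (-0.13, interval -0.81 to 0.56, adjusted p 0.784). The intervals of Boc and Cdon leave room for differences of more than 0.5 log2 units either way. Without E11.5, Gas1 passed with 0.55 (adjusted p 0.0077), and with means of log2 values over cells in place of means of TPM it passed in the other direction, with -0.74 (adjusted p 0.0411). The call for Gli1 was lost without E13.0, E14.0 or E17.0, without E14.0 plate 2 and under 4 other settings (adjusted p up to 0.193), and that for Ptch1 without E15.0 (adjusted p 0.0567). Leaving out E15.0 plate 1 changed none of the 9 calls.

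Among the other components, 6 of 20 were called, 2 higher and 4 lower in epithelial cells. Csnk1a1, a kinase, was 0.35 log2 units higher (SE 0.086, adjusted p 0.0328). Evc, a cilium protein, was lower in epithelial cells, with 18.9 against 40.5 TPM (-1.10, SE 0.11, adjusted p 0.0017), as were Gpc3 (-1.41), Prkaca (-0.57) and Spop (-0.45). Smo, the signal transducer, had -0.065 (interval -0.26 to 0.14). Of 8 targets tested, 4 were called, 3 higher and 1 lower. Among them Jag2, a Notch ligand (5.08), and Mycn (1.37) were higher and Sfrp1, a Wnt antagonist (-2.22), was lower in epithelial cells.

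The difference between the classes was also tested for a trend over embryonic day, and limma called 0 of 24166 genes (0%), against 3364 at an unadjusted p under 0.05. Ptch1, with -0.29 log2 units per day (interval -0.48 to -0.090, adjusted p 0.263), Hhip, with -0.51 (interval -1.01 to -0.015, adjusted p 0.348), and Cdon, with -0.29 (interval -0.57 to -0.0074, adjusted p 0.349), were among the latter. With means of log2 values these were -0.0046 for Ptch1, -0.16 for Hhip and -0.20 for Cdon. At E11.5 Ptch1 had 25.4 TPM in epithelial and 47.6 TPM in fibroblast-like cells, and at E17.0 it had 60.1 TPM in epithelial and 294 TPM in fibroblast-like cells.

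**Figure D2:**
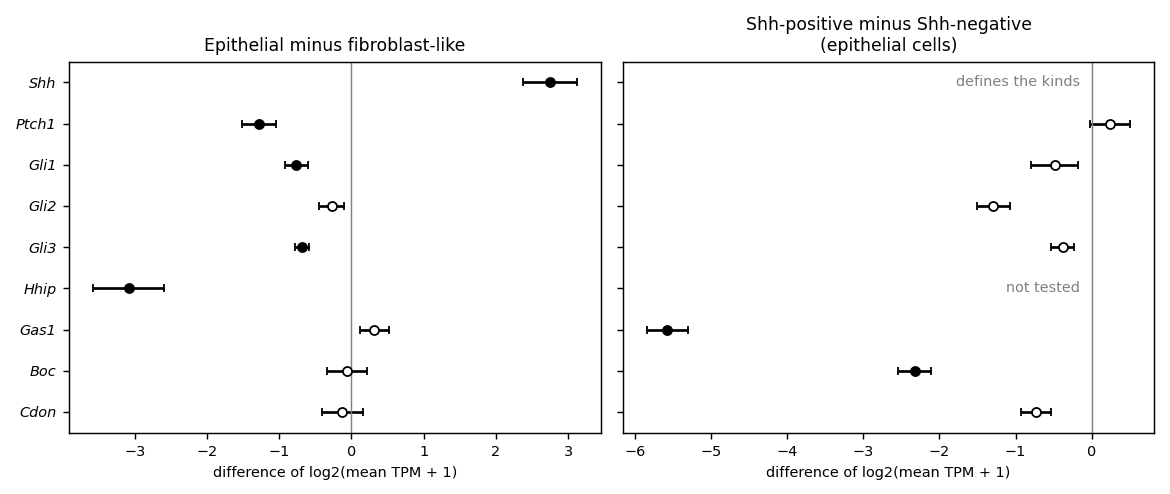
Differences of log2(mean TPM + 1) for the 9 members, epithelial minus fibroblast-like cells on the left and Shh-positive minus Shh-negative epithelial cells on the right; points are limma estimates, bars 1 SE, and filled points passed an adjusted p of 0.05. On the left Shh lies at 2.74 and Hhip at -3.08; on the right Gas1 lies at -5.57 and Boc at -2.33.

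Within the epithelium, cells that express the ligand were nearly without the coreceptor Gas1 and low in Boc. Shh-positive cells (10 TPM or more) were set against Shh-negative cells (under 1 TPM) of the same plates, with stage as a block; 5 stages (E12.0, E13.0, E14.0, E15.0 and E17.0) and 11 plates had at least 5 cells of each kind, 125 positive and 549 negative in all. E13.0 entered with 1 plate, of 6 positive and 16 negative cells. The split uses Shh, within cells already chosen by Krt5, Trp63 and Col3a1, so these 4 genes are bound by the rules and the others are not. Limma called 56 of 23799 genes (0.235%), 33 higher (0.139%) and 23 lower (0.0966%), and 2 of the 7 members tested besides Shh; Hhip was below the filter. The members' median difference was -0.73, against 0.018 over all genes tested. Gas1, at a mean of 0.891 TPM in Shh-positive cells, reached the filter of 1 TPM only through the Shh-negative cells.

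Gas1 had stage means of 2.32, 1.12, 0.509, 0.339 and 0.170 TPM in Shh-positive cells at E12.0, E13.0, E14.0, E15.0 and E17.0, against 72.2, 83.1, 106, 73.2 and 82.1 TPM in Shh-negative cells. No positive stage came near a negative one. The means were 0.891 ± 0.875 TPM in Shh-positive and 83.3 ± 13.6 TPM in Shh-negative cells (SD over 5 stages), 93.5-fold lower in the positive cells on the TPM scale and -5.57 on the log2(TPM + 1) scale (SE 0.27, adjusted p 0.0013). Over all stages, 4 of 142 Shh-positive cells (2.82%, interval 0.773 to 7.06%) had Gas1 at 10 TPM or more, all of them at E12.0, against 661 of the other 893 epithelial cells (74.02%, 71.01 to 76.9%). Read the other way, 4 of 665 Gas1-positive epithelial cells (0.602%) were Shh-positive, against 138 of the other 370 (37.3%).

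Boc had stage means of 5.58, 1.31, 4.03, 3.64 and 4.08 TPM in Shh-positive cells, against 18.9, 9.55, 22.1, 34.2 and 32.7 TPM in Shh-negative cells of the same stages. The 2 ranges did not overlap. The difference was -2.33 (SE 0.22, adjusted p 0.0207), lower in 5 of 5 stages. It held its direction in all 29 alternative settings but missed the threshold in 10, including those without E13.0, E14.0, E15.0 or E17.0 (adjusted p up to 0.114) and without E15.0 plate 2 (0.0570). Cdon, the third coreceptor, averaged 11.8 TPM in Shh-positive and 19.2 TPM in Shh-negative cells, and its difference of -0.73 (interval -1.20 to -0.27) did not pass (adjusted p 0.185).

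The transcription factors Gli2 and Gli3 had lower values in Shh-positive cells and did not pass. Gli2 had 28.5, 9.97, 15.6, 16.7 and 13.2 TPM in Shh-positive cells and 38.03, 34.3, 49.6, 36.9 and 44.04 TPM in Shh-negative cells of the 5 stages. Its stage ranges did not overlap, and its difference was -1.29 (SE 0.22, interval -1.81 to -0.78, adjusted p 0.0872); without E12.0 it passed, with -1.51 (adjusted p 0.0158). Gli3 averaged 15.5 TPM in Shh-positive and 20.1 TPM in Shh-negative cells (-0.38, interval -0.72 to -0.042, adjusted p 0.311).

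The target genes gave no common direction. Ptch1 had 96.9, 131, 263, 145 and 82.4 TPM in Shh-positive cells and 145, 182, 117, 105 and 53.3 TPM in Shh-negative cells, so that the positive cells were the lower ones at E12.0 and E13.0 and the higher ones at the 3 later stages; the difference was 0.24 (interval -0.39 to 0.87, adjusted p 0.740). Gli1 had 58.3, 43.9, 62.7, 22.7 and 14.3 TPM in Shh-positive and 56.003, 58.1, 42.6, 44.3 and 48.6 TPM in Shh-negative cells, with the largest gap at E17.0; its difference was -0.49 (interval -1.22 to 0.25, adjusted p 0.542). Whether these differences vary with stage was not tested. With all stages pooled, 99.3% of Shh-positive and 85.8% of other epithelial cells had Ptch1 at 10 TPM, and 87.3 and 74.6% had Gli1 in the same order. Stages weigh unequally in these shares: E12.0 gave 64 of the 142 Shh-positive cells and 203 of the 893 others. By stage, the Gli1 share was lower in Shh-positive cells at E11.5, E15.0 and E17.0 (68.75 against 78.4% at E17.0). It was higher in them at E12.0 (100 against 97.04%), E13.0, E13.5 and E14.0. Several of these directions rest on few Shh-positive cells, with Gli1 in 1 of 3 at E11.5, 5 of 5 at E13.5 and 10 of 11 at E14.0. The shares were 33.3 against 35.3% at E11.5 and 66.7 (10 of 15 cells) against 69.9% at E15.0.

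**Figure D3:**
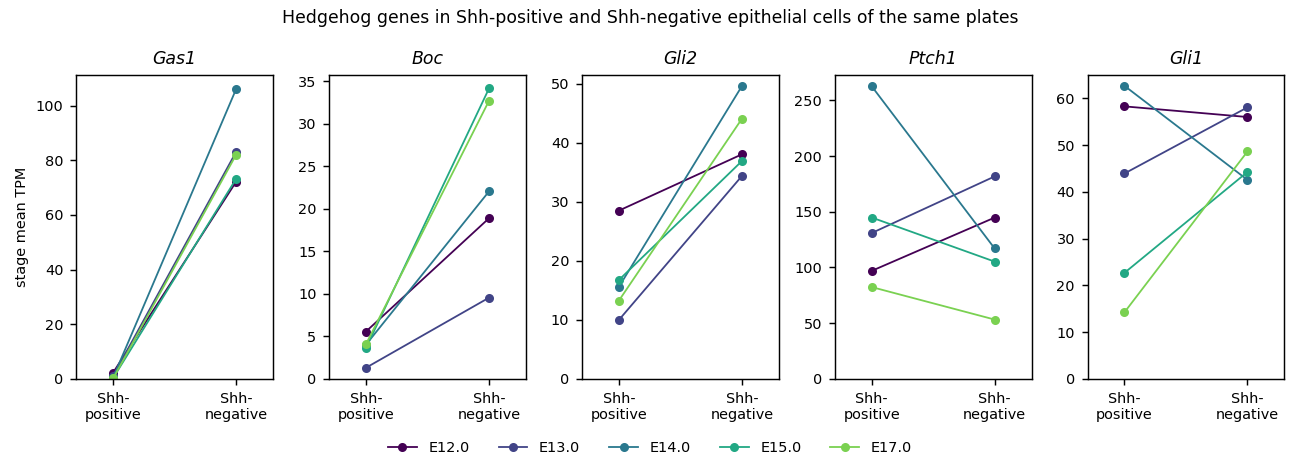
Stage mean TPM of Gas1, Boc, Gli2, Ptch1 and Gli1 in Shh-positive (left) and Shh-negative (right) epithelial cells of the same plates; lines join the 2 kinds of cell of 1 stage, coloured by stage. Gas1 is at 2.32 TPM or below in every Shh-positive stage and at 72.2 TPM or above in every Shh-negative stage, while the lines of Ptch1 and Gli1 cross.

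Of the other components, 1 of 20 was called in this comparison, Scube1, a secreted relative of Scube2, with 18.1 TPM in Shh-positive and 0.556 TPM in Shh-negative cells (3.30, SE 0.37, adjusted p 0.0308), and of the targets 0 of 8. Scube1, and Notum below, reached the filter of 1 TPM only through the Shh-positive cells. Genes with the largest differences were named by rule, 8 each way among the 37 called genes whose higher mean was at least 20 TPM. Those higher in Shh-positive cells were Notum, an enzyme that inactivates Wnt proteins (53.2 against 0.288 TPM in Shh-negative cells), the ligands Bmp2, Wnt10b and Wnt5a, the factor Sox21, the Wnt antagonist Nkd1, the ectodysplasin receptor Edar and the hyaluronan synthase Has3. Those lower were Gas1, the basal keratin Krt15 (39.7 against 473 TPM), the ligand Wnt7b, Igfbp5, Lmo1, Ptrf, Rasa3 and Rflnb. The difference of Gas1 was larger on the log2 scale than that of any other gene named here.

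Shh-positive cells also differed from Shh-negative ones in marker sums, whose part in these results was not tested. The summed TPM of the 10 basal markers had a median of 799 in 142 Shh-positive and 2041 in 826 Shh-negative cells, that of 6 nerve and Schwann markers 8.61 and 3.40, that of 8 fibroblast markers 6.46 and 10.7, and genes per cell 17910.5 and 17432.5, each in the same order; Krt5 and Trp63 are among the basal and Col3a1 among the fibroblast markers, and the choice of cells limits all 3 in both kinds. The number of calls in the whole fit was 3 to 12 without E13.0, E14.0, E15.0 or E17.0 and 748 without E12.0. Gas1 passed in each of these fits (adjusted p 0.0013 to 0.0244). It missed the threshold when positive cells were taken from 1 TPM (-2.32, adjusted p 0.0911) or from 50 TPM (-5.74, adjusted p 0.0794).

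Correlations of the members over single cells were described as well. Within plates of at least 20 cells of a class, the partial Spearman correlation given genes per cell was averaged over 15 plates with 995 epithelial cells and over 5 plates with 303 fibroblast-like cells (epithelial pairs with Hhip rest on 7 plates with 548 cells); cells of a plate share their library preparation and all values share a TPM total, so these are descriptions. Ptch1 and Gli1 had 0.59 in epithelial and 0.42 in fibroblast-like cells, and Gas1 and Boc had 0.51 and 0.39 in the same order. Cdon had 0.25 with Gas1 and 0.28 with Boc in epithelial cells, and 0.31 and 0.25 in fibroblast-like cells. By plate, Ptch1 with Gli1 and Gas1 with Boc were above 0 throughout in both classes. Cdon with Gas1 ran from -0.053 to 0.53 on epithelial and from -0.21 to 0.52 on fibroblast-like plates. Cdon with Boc ran from -0.16 to 0.45 and from 0.039 to 0.42 in the same order. Gli2 had 0.30 with Boc and 0.26 with Gas1 in epithelial cells, and 0.0049 and 0.085 in fibroblast-like cells. Shh had -0.43 with Gas1, the lowest value among 12806 genes ranked, and -0.35 with Boc, but 0.06 with Ptch1 and 0.02 with Gli1. Values with Gli1 were not the same in both classes: Boc and Gli1 had 0.11 in epithelial and -0.37 in fibroblast-like cells, and Gas1 and Gli1 0.03 and -0.29. In fibroblast-like cells Hhip had 0.37 with Gli1 and 0.24 with Ptch1; epithelial values with Hhip are not set beside them, since 2 of 1035 cells reached 10 TPM. Counted at 10 TPM, all 116 Hhip-positive fibroblast-like cells were also positive for Gli1 and for Ptch1. Both genes were common in the class, with Gli1 in 86.6% and Ptch1 in 94.5% of all 417 cells. Of the 116 cells, 79 came from E13.0, where 96.2% of fibroblast-like cells had Gli1 and 100% had Ptch1.

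**Figure D4:**
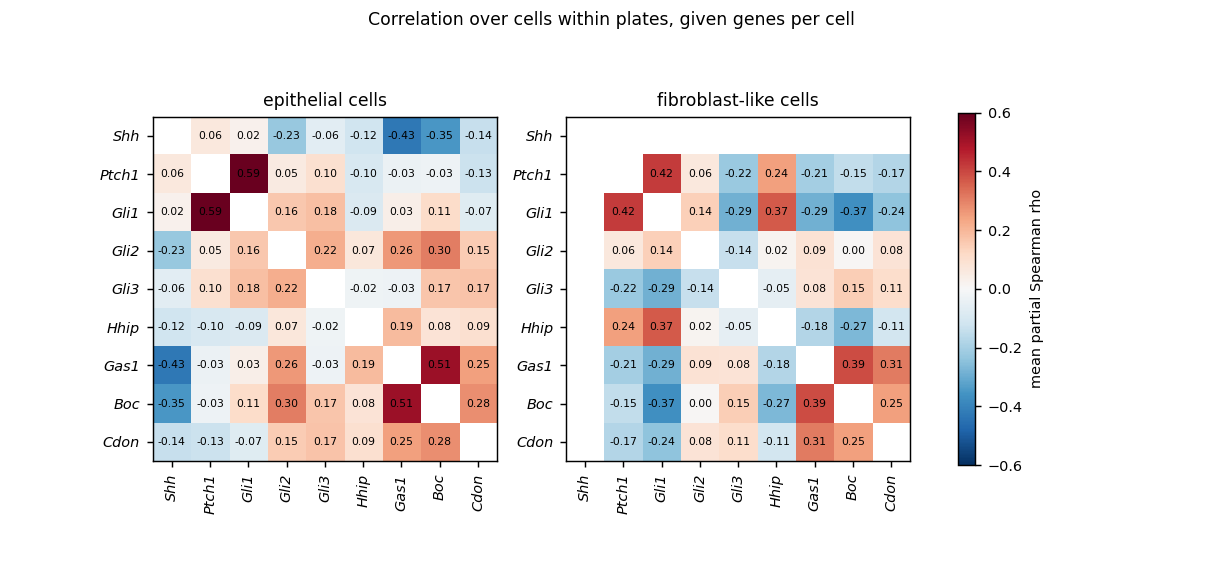
Mean partial Spearman correlation over cells within plates, given genes per cell, for each pair of members in epithelial (left, 995 cells, or 548 for pairs with Hhip) and fibroblast-like cells (right, 303 cells, where Shh, which entered on 1 plate of 73 cells, is left blank). Red cells of the grid are positive and blue negative. The means of the pair Ptch1 and Gli1, and of those among Gas1, Boc and Cdon, are positive in both classes. Pairs with Cdon are not positive on every plate.

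The genes nearest to each target gene were also ranked. In epithelial cells the 5 nearest to Ptch1 included Gli1, Sh3bp4, Lhx2 and Gtf2ird1 (0.59 to 0.41), and those nearest to Gli1 included Ptch1, Lhx2, Sh3bp4 and Arl15 (0.59 to 0.49), so that Lhx2 and Sh3bp4 stood on both lists. Nearest to Shh were Srgap1, Nkd1, Edar, Bmp2 and Pkp4 (0.42 to 0.39). These are means over plates, and by plate Lhx2 with Gli1 ran from -0.27 to 0.81 and Bmp2 with Shh from -0.0042 to 0.73. In fibroblast-like cells the 5 nearest to Ptch1 included Pdlim3, Ankrd50, Foxd1 and Prrx1 (0.51 to 0.43), and Gli1 stood nearest to Alx4, Pdzd2, Adamts4, Nrp2 and Prrx1 (0.56 to 0.48).

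Finer kinds of cell were described at the 2 stages with most cells of a class. At E12.0 Ptch1 had 96.9 TPM in 64 Shh-positive cells, 191.2 TPM in 65 cells with Sox9 at 10 TPM or more and Shh under 1 TPM, and 103 TPM in 30 cells with both under 1 TPM. The plate means of the Sox9-positive cells, 175 to 215 TPM, lay above those of both other kinds. Gas1 was stepped across the same kinds, with 2.32, 50.04 and 108.4 TPM, and so was Boc, with 5.58, 14.4 and 24.1 TPM. Sox9 marks early follicle stem cell precursors.

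At E13.0 the 210 fibroblast-like cells were split by Sox2, a factor of dermal papilla and condensate cells. Those with Sox2 of 1 to under 10 TPM were left out. Ptch1 had 353 TPM in 75 cells with Sox2 at 10 TPM or more (plates 299 to 433 TPM) and 168 TPM in 84 cells under 1 TPM (138 to 186 TPM). Gli1 had 128 TPM in the Sox2-positive and 69.6 TPM in the Sox2-negative cells, and Hhip 18.6 and 9.20 TPM. The coreceptors went the other way: Gas1 had 16.5 TPM in Sox2-positive and 44.6 TPM in Sox2-negative cells, Boc 9.74 and 23.01 TPM, and Cdon 7.55 and 26.05 TPM. In each of these 6 genes the 3 plate means of one kind lay apart from the 3 of the other; plates of 1 stage are not replicates, so no test was made. Gli2 was also lower in the Sox2-positive cells, with 49.9 TPM (plates 43.9 to 57.8 TPM) against 71.2 TPM (65.4 to 81.8 TPM). Gli3 had 29.2 and 31.3 TPM in the same order, with overlapping plates.

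**Figure D5:**
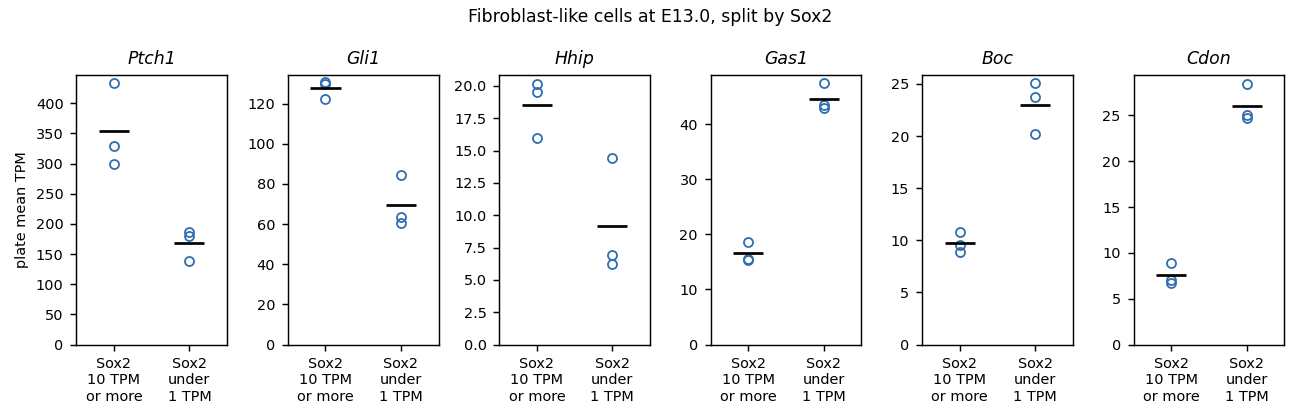
Plate mean TPM of 6 Hedgehog genes in fibroblast-like cells at E13.0 with Sox2 at 10 TPM or more (left) and under 1 TPM (right); circles are the 3 plates and bars their mean. Ptch1, Gli1 and Hhip are higher and Gas1, Boc and Cdon lower in the Sox2-positive cells.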

How the data were processed

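The authors deposited TPM values, 1 column a cell, with genes of the same symbol added up. The tools named are Subread 1.5.0, whose counter is featureCounts, then HISAT2 2.0.4 and bcl2fastq 1.0, with the build mm10, per the submitters' processing notes. TPM keeps no read depth, so genes at 1 TPM or more per cell stand in for it. Of 1666 labelled cells, 52 marked low quality have no column; unused columns: 0.

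Stage values are means over cells of a class on a plate, then over plates with at least 5 such cells. Tests used limma 3.58.1 in R 4.3.3 (lmFit, eBayes with trend, two-sided) on log2(TPM + 1), with Benjamini-Hochberg adjustment over all genes whose mean reached 1 TPM. The labels name no embryo, so stages serve as the samples. The p-values of the trends rest on the scatter of stage values about the fitted line. Those of the 2 contrasts rest on how the difference within a stage varies over stages. Other values and plots used matplotlib 3.10.9, scipy 1.17.1, numpy 2.4.6 and pandas 2.3.3 under Python 3.11.15. The fits were checked on simulated data. No doublet caller was run, since cells were sorted into single wells. Mitochondrial, ribosomal RNA, 7SK/7SL and Mir6236 symbols took 25.8 to 30.8% of TPM by stage.

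Named besides the 9 members are listed pathway and target genes, markers, the 5 genes nearest to Shh, Ptch1 and Gli1, and the 8 largest differences each way with Shh; 1 gene that these rules name is not reported here. Members, lists and rules were chosen with earlier results of these data known.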

Additional observations from a re-analysis of the deposited data

Results flagged for a closer look

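The 162 cells that fell in neither class entered no comparison. Members above 1.85%, the share that a count of 0 allows, were flagged. The share of all genes above that mark was not computed, so the flag says nothing particular about the members. Shh was at 10 TPM or more in 3 of the 162 cells (1.85%) and Hhip in 2 (1.23%). Shares at 10 TPM or more were 69.8% for Ptch1, 54.9% for Gli3, 35.2% for Cdon, 27.8% for Gas1, 20.4% for Gli1, 20.4% for Gli2 and 11.1% for Boc. By the listed markers, of which a cell can carry more than 1 set, 46 of these cells had at least 3 nerve and Schwann markers at 10 TPM, and among them 95.7% had Gli3, 67.4% Ptch1 and 13.04% Gli1. In 46 cells with endothelial markers, 63.04% had Ptch1 and 0 had Gli1, Gli2, Gas1 or Boc. All 14 cells with melanocyte markers and all 11 with Merkel cell markers had Ptch1, and 1 cell of each kind had Gli1. Of 10 cells with immune markers, 2 had Ptch1 and 1 had Cdon, and the other 7 members were at 10 TPM in 0.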

How the results depend on the processing

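Counts of calls moved with the settings. For the epithelial trend they were 30 with no filter, 0 with plates of the lane format alone, 1412 with the rank of the stage and 691 with means of log2 values, and 39 to 408 without a stage and 141 to 517 without a plate. For the fibroblast-like trend they were 19 and 37 at pseudocounts of 0.1 and 5 TPM, 0 with no filter, 192 with a filter at 10 TPM, 2 with median-of-ratios scaling, 24 with pooled cells, 0 with the lane format, 14 with stricter classes, 345 with means of log2 values and 36 rescaled without abundant non-coding symbols, and 0 to 2 without a stage and 0 to 96 without a plate. Between the classes they were 2793 with the filter at 10 TPM and 3332 with the lane format, and 2267 to 7087 without a stage and 4428 to 7087 without a plate. For Shh-positive cells they were 37 at a pseudocount of 0.1 TPM, 2 with no filter, 90 with the filter at 10 TPM, 34 with median-of-ratios scaling, 4 with the lane format, 103 and 1 with positive cells taken from 1 and 50 TPM and 230 with means of log2 values, and 3 to 748 without a stage and 12 to 61 without a plate. For the trend of the difference they were 10 with the filter at 10 TPM, 3 with stricter classes and 1 with means of log2 values, and 0 to 0 without a stage and 0 to 1 without a plate. The cause of these shifts was not tested.

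Values that changed sign were those of fibroblast-like slopes with the lane format (Ptch1 -0.40, Gli3 0.0059, Hhip -0.79) and Hhip in the trend of the difference (0.86). Between the classes Boc (0.083) and Cdon (0.016) did so with median-of-ratios scaling, Gas1 (-0.74, adjusted p 0.0411) and Cdon (0.031) with means of log2 values, and both Boc (-0.24 to 0.18) and Cdon (-0.34 to 0.080) when a stage or plate was left out. Gli1 had 0.071 in Shh-positive cells with means of log2 values. Without the stage block that pairs the values, Ptch1, Gli1 and Gli3 lost their calls between the classes (adjusted p 0.170, 0.193 and 0.138), and no other member's call changed.

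The comparisons between classes and between Shh-positive and Shh-negative cells were paired by stage; replicate numbers name single cells and not shared animals, so they were not used as a replicate block. Rescaling shifted the median of all genes by 0.37 to 0.49 log2 units, in all groups alike in direction. TPM keeps no read counts, so the counting error of low values such as epithelial Hhip is unknown, and small classes at E11.5 and E14.0 limit precision there.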
